A study of Mus musculus with 6 samples.

Results

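The mouse Dlx genes lie in the genome as linked pairs, and 3 windows of mm9 that hold them were examined for peaks of H3K27me3 and H3K4me3 in neural stem cell (NSC) cultures of the subventricular zone (SVZ). The windows were chr2:71350000-71400000 for Dlx1/Dlx2 (50 kb), chr6:6800000-6845000 for Dlx5/Dlx6 (45 kb) and chr11:94965000-95020000 for Dlx3/Dlx4 (55 kb). Every deposited peak that overlapped a window was taken, which gave 26 of the 43384 peaks of the series, namely 9 at Dlx1/Dlx2, 7 at Dlx5/Dlx6 and 10 at Dlx3/Dlx4. Of these, 8 were H3K27me3 peaks of cultures 30 h after the start of differentiation, 8 were H3K27me3 peaks of proliferating cultures and 10 were H3K4me3 peaks of proliferating cultures.

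The cultures were monolayers grown from the SVZ of early postnatal C57BL/6 mice and used at passages 5 to 7. In ChIP-seq, DNA attached to a modified histone is pulled down with an antibody, here from Millipore for H3K27me3 and from Active Motif for H3K4me3, and sequenced. The 30 h cultures had been moved to a medium with less serum and without EGF and bFGF, the growth factors that keep the cells dividing, and the proliferating cultures had both factors. The labels call the culture for H3K4me3 ventral, which they do not say of either H3K27me3 culture, and no deletion or other treatment is named for any of them. Each mark and time had 1 library made from a whole culture, so no difference below has a replicate check, none was tested, and peaks of 2 marks at one place do not show both marks in the same cell. The proliferating libraries of both marks carry the number N5 in their titles and the 30 h library N6. What this number stands for is not stated, so time cannot be told apart from whatever it marks. Whether the 2 marks of proliferating cultures come from the same culture is not stated either, which limits every overlap of the marks below. Since the lists give no read counts, the depth behind a peak is unknown.

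DLX proteins are homeodomain transcription factors. Dlx1 and Dlx2 act early in the ventral forebrain and in the SVZ, where DLX2 marks transit amplifying cells and neuroblasts, and they are needed for the migration and identity of GABAergic interneurons, olfactory bulb interneurons among them. Dlx5 and Dlx6 act later in the same interneuron lineage and also in the branchial arches and the skeleton, whereas Dlx3 and Dlx4 are known mainly outside the brain, Dlx3 in skin, hair, teeth, bone and placenta. H3K27me3 is placed by EZH2, the methyltransferase of Polycomb repressive complex PRC2, and goes with silent genes, while H3K4me3 marks the start sites of active or poised genes. In the RefSeq annotation of GRCm38.p6 the protein-coding neighbours of the pairs are Metap1d and Itga6 for Dlx1/Dlx2, Sem1 and Sdhaf3 for Dlx5/Dlx6, and Itga3 and Tac4 for Dlx3/Dlx4. The antisense RNA Dlx1as overlaps Dlx1, the long non-coding RNAs Dlx6os1 (also called Evf2) and Dlx6os2 overlap Dlx6, and Dlx4os overlaps Dlx4. Gene positions in mm9 were not used, so a peak is given by its place in the window and is assigned to no single gene, and the identity of the cells was not checked against marker genes.

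Promoters from RefSeq (GRCm38.p6) are shown because H3K4me3 and PRC2 both favour CpG-rich start sites. Among the 6 Dlx genes, Dlx1 and Dlx2 had an entry of 300 bases, and Dlx3, Dlx4, Dlx5 and Dlx6 had none. Dlx1 held 27 CG pairs and Dlx2 held 29, against a median of 7 over 32851 promoters, and 15.5% and 12.9% of all promoters held at least as many. Dlx6os1 had an entry for each of 2 start sites, and the first-listed one held 5 CG pairs and 35.7% G+C, against 69.3% G+C in Dlx1 and 66.3% in Dlx2. The second held 3 CG pairs and 35.3% G+C. Dlx6os2 held 10 CG pairs and 51.7% G+C, and Dlx4os 11 and 53.3%, both above the median count. The first-listed Dlx6os1 entry also held 2 copies of the letters TAATTA, a core bound by many homeodomains that reads the same on both strands, and the second Dlx6os1 entry held 1. At least 1 copy was found in 5.29% of all promoters and at least 2 in 0.435%, and there was none in the entries of Dlx1, Dlx2, Dlx6os2 and Dlx4os. A match is a description of these letters and not a bound site. The first 250 bases of each entry, all before the start site, are written 5′ to 3′ with CG in capitals for Dlx1 (plus strand, GRCm38.p6 chr2:71529195-71529444) and Dlx2 (minus strand, GRCm38.p6 chr2:71546755-71547004), and TAATTA in capitals for Dlx6os1 (minus strand, GRCm38.p6 chr6:6869534-6869783). These positions are of another build than the peaks and cannot be set against them.
Dlx1: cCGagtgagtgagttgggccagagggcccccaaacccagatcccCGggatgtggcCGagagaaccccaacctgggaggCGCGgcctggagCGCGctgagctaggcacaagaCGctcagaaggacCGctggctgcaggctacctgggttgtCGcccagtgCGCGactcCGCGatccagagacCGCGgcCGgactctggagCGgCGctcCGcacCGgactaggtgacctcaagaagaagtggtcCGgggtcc
Dlx2: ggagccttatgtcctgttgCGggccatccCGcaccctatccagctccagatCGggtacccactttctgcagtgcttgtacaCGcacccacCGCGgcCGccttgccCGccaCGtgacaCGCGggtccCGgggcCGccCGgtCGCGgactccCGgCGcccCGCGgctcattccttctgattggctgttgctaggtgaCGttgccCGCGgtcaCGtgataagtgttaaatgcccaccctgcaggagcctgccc
Dlx6os1: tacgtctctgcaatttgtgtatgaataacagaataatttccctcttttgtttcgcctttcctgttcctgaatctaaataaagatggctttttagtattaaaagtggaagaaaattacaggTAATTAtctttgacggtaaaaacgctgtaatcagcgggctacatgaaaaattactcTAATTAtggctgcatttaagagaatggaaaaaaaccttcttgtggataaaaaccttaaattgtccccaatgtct

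H3K27me3 was found in all 3 windows at both times, and its extent did not divide the interneuron pairs from Dlx3/Dlx4. The Dlx5/Dlx6 window was the most covered and the Dlx1/Dlx2 window the least, with Dlx3/Dlx4 between them. At Dlx1/Dlx2 the mark covered 15.38 kb (30.8% of the window) at 30 h and 7.093 kb (14.2%) in proliferating cultures. At Dlx5/Dlx6 it covered 43.85 kb (97.4%) at 30 h and 34.4 kb (76.4%) in proliferating cultures. At Dlx3/Dlx4 it covered 36.73 kb (66.8%) at 30 h and 28.4 kb (51.6%) in proliferating cultures. The order of the windows was thus the same at both times, and a pair of early interneuron genes carried the shortest H3K27me3 of the family. H3K4me3 ran the other way, with 8.128 kb at Dlx1/Dlx2 (16.3% of the window), 2.702 kb at Dlx5/Dlx6 (6.00%) and 3.937 kb at Dlx3/Dlx4 (7.16%).

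**Figure D1:**
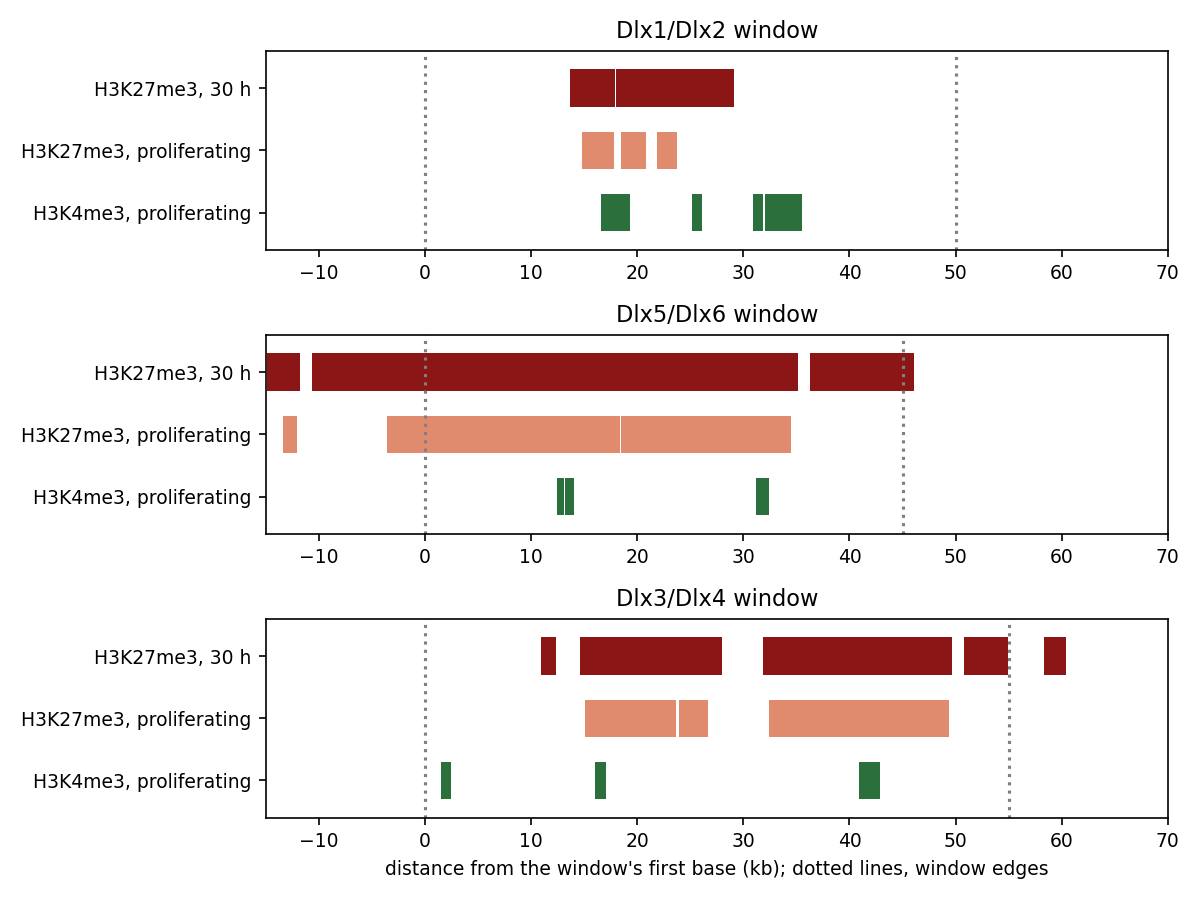
Peaks of the 3 lists (rows; 1 library each) in the 3 Dlx windows (panels), drawn to scale by distance from the first base of the window (x axis, kb), with dotted lines at the window edges and peaks up to 15 kb outside shown as well. H3K27me3 covers 97.4% of the Dlx5/Dlx6 window at 30 h and 30.8% of the Dlx1/Dlx2 window, where the last 2 H3K4me3 peaks lie beyond its upper end.

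Each window was set against all non-overlapping 50 kb tiles of the placed chromosomes, 52814 in all, of which 15.3% held any H3K27me3 at 30 h, 13.0% any in proliferating cultures and 25.7% any H3K4me3. For Dlx1/Dlx2, 2.62% of tiles had at least as much H3K27me3 at 30 h and 1.71% in proliferating cultures. For Dlx5/Dlx6 these shares were 0.153% at 30 h and 0.0871% in proliferating cultures. For Dlx3/Dlx4 they were 0.339% at 30 h and 0.155% in proliferating cultures. All 3 windows therefore lay in the upper 3% of tiles for H3K27me3, with Dlx5/Dlx6 and Dlx3/Dlx4 much nearer to the top. For H3K4me3, 0.687% of tiles held at least as much as Dlx1/Dlx2, 10.9% as much as Dlx5/Dlx6 and 5.59% as much as Dlx3/Dlx4. The windows were laid around genes and the tiles were not, and the windows of 45 and 55 kb differ from the tiles in length.

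**Figure D2:**
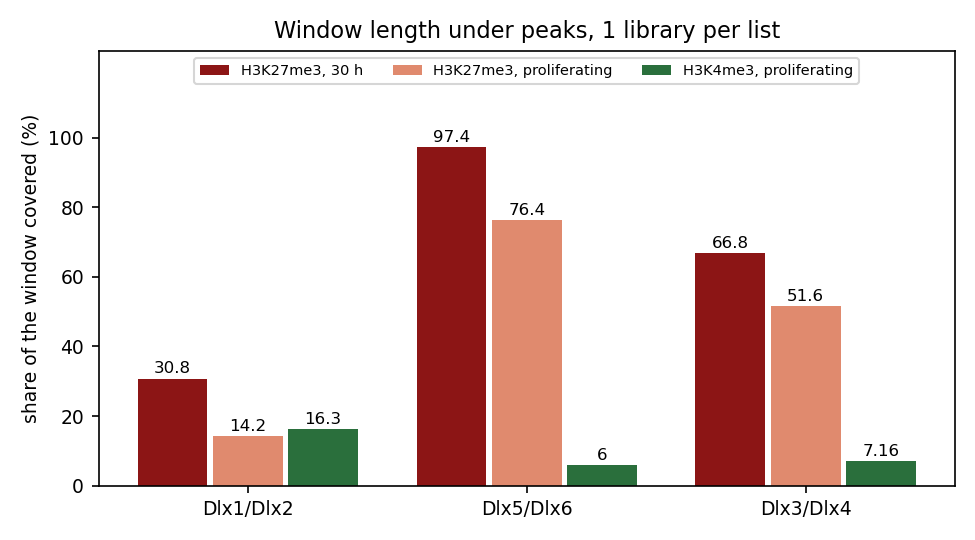
Share of each window under peaks (y axis, percent) for the 3 Dlx windows (x axis), with 1 bar per list and 1 library per bar, hence no error bars. Dlx1/Dlx2 has the least H3K27me3 (30.8% at 30 h and 14.2% in proliferating cultures) and the most H3K4me3 (16.3%).

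**Figure D3:**
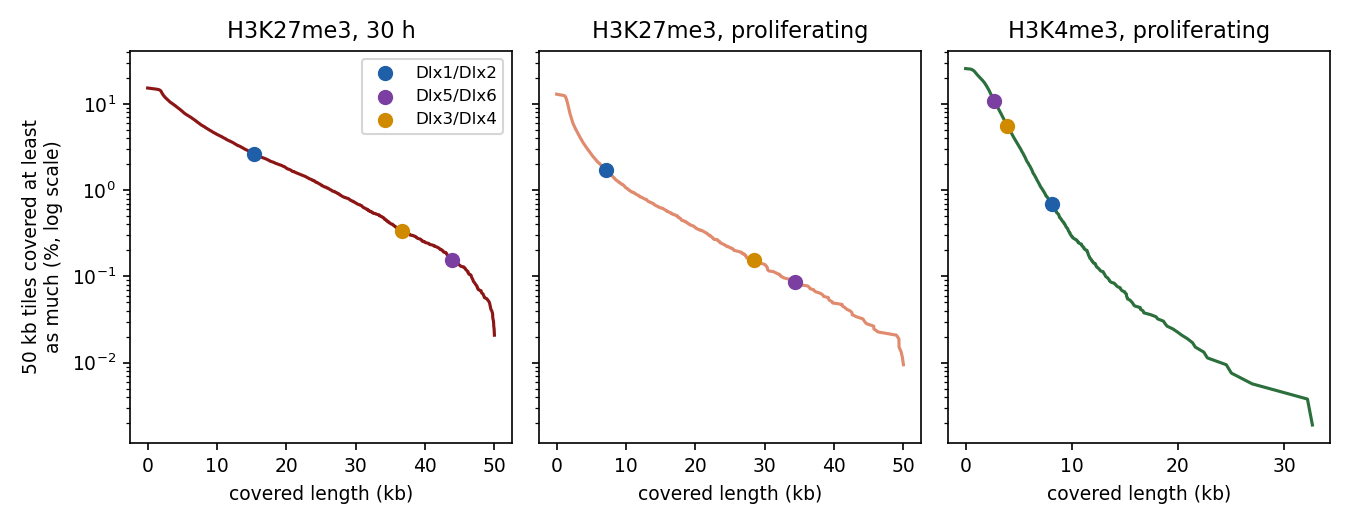
Share of 50 kb tiles of the genome covered at least as much (y axis, percent, log scale) against covered length (x axis, kb) for each list (panels; lines, all tiles), with the 3 Dlx windows as points. The H3K27me3 points of Dlx5/Dlx6 and Dlx3/Dlx4 lie below 0.4% of tiles and those of Dlx1/Dlx2 at 2.62% and 1.71%, and the order is turned round for H3K4me3.

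At Dlx1/Dlx2, H3K27me3 formed a domain that was narrower than those of the other windows but wide for its lists. With peaks less than 3 kb apart joined, it was wider than 89.8% of domains at 30 h and 92.0% in proliferating cultures. Of the 2 peaks at 30 h, the wider one (chr2:71368018-71379156) was 11.14 kb wide with a score of 886.09, above 88.1% of the 30 h list, and the other (chr2:71363636-71367881) was 4.246 kb wide with a score of 199.63, above 58.4%. The score is the value that the peak caller MACS gave each peak, and ranks peaks only within a list. The 3 peaks of proliferating cultures were narrower, with widths of 2.951, 2.317 and 1.825 kb and scores of 172.25, 118.61 and 117.83. Their scores lay above 64.0 to 74.8% of the proliferating list, so they were neither among its weakest nor among its strongest peaks. The whole domain stood alone. Beyond the window the next H3K27me3 peak below was 853 kb away in both lists, and the next above was 161 kb away at 30 h and 1250 kb away in proliferating cultures.

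At Dlx5/Dlx6, H3K27me3 formed one of the widest domains of each list. The wider peak at 30 h (chr6:6789303-6835136) was 45.83 kb wide, the 40th widest of 15187 and began below the window's lower edge. It was followed by a peak of 9.785 kb (chr6:6836289-6846073, score 857.14) that overlapped no peak of proliferating cultures, the nearest being 1.76 kb away. In proliferating cultures the window held peaks of 21.95 kb (chr6:6796388-6818335) and 16.07 kb (chr6:6818466-6834532), separated by 130 bp. Both of these and the 45.83 kb peak had the score 3100, a value that 3.30% of the 30 h peaks and 2.27% of the proliferating H3K27me3 peaks share, so that the score ranks them above nearly all other peaks but not among each other.

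At Dlx3/Dlx4, H3K27me3 lay in 2 blocks with an unmarked stretch between them. The upper block was led by a peak of 17.75 kb at 30 h (chr11:94996865-95014619) and one of 17.02 kb in proliferating cultures (chr11:94997367-95014389), all but equal in extent and both with the score 3100. The lower block was led by a peak of 13.4 kb at 30 h (chr11:94979582-94992977, score 3100) and one of 8.602 kb in proliferating cultures (chr11:94980075-94988676, score 2506.93). Between the blocks, 3.89 kb (chr11:94992978-94996864) were free of H3K27me3 in both lists and held no H3K4me3 peak. The other peaks at 30 h were 1.455 kb wide with a score of 52.84, close to the lowest score of the list (50.03), and 4.126 kb wide with a score of 138.53. The remaining peak of proliferating cultures was 2.776 kb wide with a score of 208.56.

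Every base of H3K27me3 that proliferating cultures had in the windows was also covered at 30 h, against 74.3% of the bases of the whole proliferating list. All 8 proliferating peaks overlapped a 30 h peak, against 61.3% of the whole proliferating list, and 30 h peaks covered 100% of each. Of the 8 peaks at 30 h, 5 overlapped a proliferating peak, against 30.7% of the whole 30 h list. These shares of the lists were not matched for peak width. When the 30 h list was cut to its strongest peaks until it covered as much of the genome as the proliferating one, a setting chosen after seeing the data, 2.951 kb at Dlx1/Dlx2 were covered in proliferating cultures alone. The windows share this direction with the lists they come from, since the 30 h list covered 73.41 Mb and the proliferating list 29.17 Mb, a ratio of 2.52. The covered length at 30 h was 2.17 times that in proliferating cultures at Dlx1/Dlx2, 1.27 times at Dlx5/Dlx6 and 1.29 times at Dlx3/Dlx4. Lengths were clipped to the windows, so at Dlx5/Dlx6 and Dlx3/Dlx4 the ratio could not have reached 2.52. The window ratios, like the ratio of the lists, count 30 h peaks that overlap no proliferating peak. The lists, however, also count places with H3K27me3 at 30 h only or in proliferating cultures only, whereas each window had it at both times. The window ratios therefore cannot be set against that of the lists. The length under H3K27me3 at 30 h alone was alike in the 3 windows, 8.292 kb at Dlx1/Dlx2, 9.446 kb at Dlx5/Dlx6 and 8.331 kb at Dlx3/Dlx4, on very different lengths shared by both times (7.093 kb at Dlx1/Dlx2, 34.4 kb at Dlx5/Dlx6 and 28.4 kb at Dlx3/Dlx4). With 25 kb more on each side of the window, the length at 30 h alone was 19.43 kb at Dlx5/Dlx6, and in the stronger 50% of each list it was 2.75 kb at Dlx3/Dlx4. Depth and time cannot be told apart in these differences.

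The length covered at 30 h alone lay mostly at the ends of the domains. Peaks less than 3 kb apart were joined into domains, and in 3269 cases across the genome 1 domain of one list met 1 of the other. At 30 h the domain reached past both ends of the proliferating one in 74.6% of these cases, by a median of 1.09 kb on the lower side and 1.10 kb on the upper side. The Dlx1/Dlx2 domain was 15.52 kb wide at 30 h and 8.906 kb in proliferating cultures, and reached 1.17 kb further on the lower side and 5.44 kb further on the upper side. The lower Dlx3/Dlx4 domain, 17.1 kb at 30 h and 11.63 kb in proliferating cultures, reached 1.28 kb further on its upper side and 4.2 kb further on its lower side. The upper one, 23.05 kb at 30 h and 17.02 kb in proliferating cultures, reached 5.52 kb further on its upper side and 0.502 kb on its lower side. Thus the 3 joined domains passed both ends, as most in the genome did, and each did so mainly on 1 side. At Dlx3/Dlx4 the longer reach came from joining a separate 30 h peak across a gap without a called peak. The 4.2 kb held the peak of 1.455 kb (score 52.84) and a gap of 2.25 kb. The 5.52 kb held the peak of 4.126 kb (score 138.53) and a gap of 1.17 kb. The Dlx5/Dlx6 domain at 30 h, 61.0 kb wide, met more than 1 proliferating domain and was not among these cases. It ranked 62nd by width among 10640 domains at 30 h, and the 38.15 kb domain of proliferating cultures ranked 39th among 7853.

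H3K4me3 also set Dlx1/Dlx2 apart from both other windows. Dlx1/Dlx2 held the widest and the highest-scoring H3K4me3 peaks of the family, while all those at Dlx5/Dlx6 and Dlx3/Dlx4 were below the median score of the list (2622.3). The peak chr2:71381992-71385527 was 3.536 kb wide, wider than 91.3% of the list, and had the score 3100, reached or passed by 46.1% of H3K4me3 peaks. The peak chr2:71366601-71369311 was 2.711 kb wide with a score of 2764.24. The other peaks of the window (chr2:71375182-71376071 and chr2:71380888-71381878) were small, 0.890 and 0.991 kb wide, with scores of 218.29 and 253.97.

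The Dlx5/Dlx6 window, although it is the other interneuron pair, held only weak H3K4me3. Its peaks (chr6:6812403-6813112, chr6:6813213-6814046 and chr6:6831212-6832369) were 0.710, 0.834 and 1.158 kb wide, with scores of 297.61, 204.85 and 294.21, above 18.5 to 22.4% of the list. The Dlx3/Dlx4 window was much like it. Its peaks (chr11:94966524-94967393, chr11:94981037-94982081 and chr11:95005896-95007917) were 0.870, 1.045 and 2.022 kb wide, with scores of 87.63, 114.25 and 624.02. By score, then, the peaks of Dlx5/Dlx6 fell within the range of those of Dlx3/Dlx4, and among the 10 peaks only the 2 wide ones of Dlx1/Dlx2 scored above both. In the stronger 50% of the H3K4me3 list no peak was left at Dlx5/Dlx6 or Dlx3/Dlx4.

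**Figure D4:**
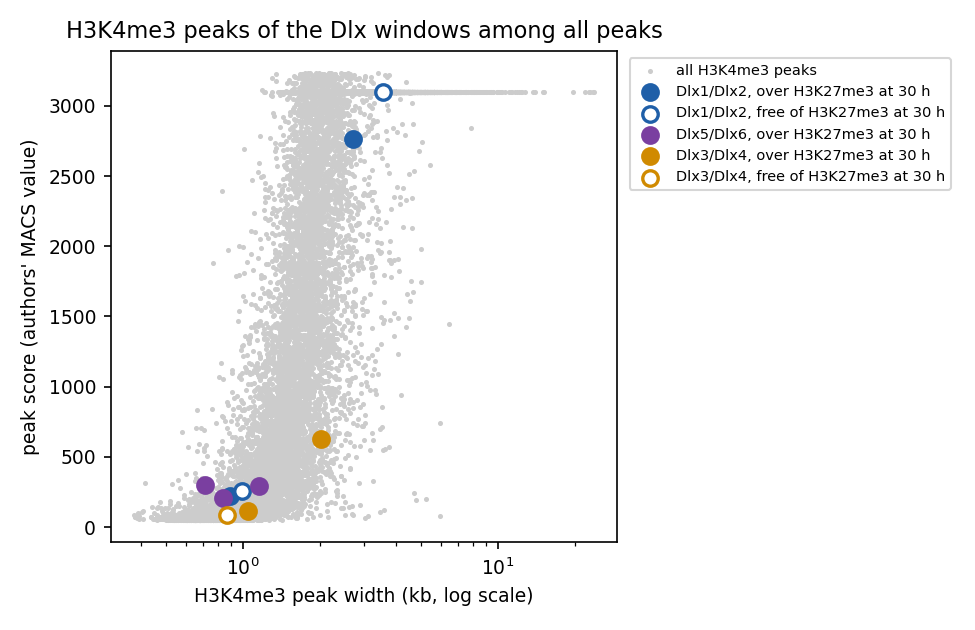
Score (y axis, the authors' MACS value) against width (x axis, kb, log scale) of all H3K4me3 peaks (grey) and of the 10 in the Dlx windows (colour by pair; filled, over H3K27me3 at 30 h; open, free of it). A pair of Dlx1/Dlx2 peaks, at scores of 3100 and 2764.24, stands above the other 8, whose scores are 624.02 or less. All H3K4me3 peaks are of proliferating cultures.

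In most cases, H3K4me3 peaks in the windows lay under H3K27me3 peaks. H3K4me3 had no library at 30 h. Every overlap with H3K27me3 at 30 h, here and below, therefore sets H3K4me3 of proliferating cultures against H3K27me3 of the later time. Of the 10 H3K4me3 peaks, 7 overlapped H3K27me3 at 30 h and 6 in proliferating cultures, against 14.3% and 11.0% of the whole H3K4me3 list. The windows were themselves rich in H3K27me3, and among all H3K4me3 peaks with a score below 300, as 7 of the 10 were, 21.3% overlapped it at 30 h and 17.2% in proliferating cultures. At Dlx5/Dlx6 all 3 peaks were covered in full at both times. At Dlx3/Dlx4, 2 of 3 were covered in full at both times, and the third, 1.5 kb from the window's lower edge, lay 8.48 kb from H3K27me3 at 30 h and 12.7 kb from it in proliferating cultures. Every window thus held an H3K4me3 peak of proliferating cultures that H3K27me3 of the 30 h list covered in full. At Dlx1/Dlx2 this was only a small peak of 0.89 kb with a score of 218.29. Full cover was not counted over the whole H3K4me3 list, and a narrow peak is more easily covered in full. The proliferating H3K27me3 list covered no H3K4me3 peak in full at Dlx1/Dlx2. Whether H3K4me3 was still there at 30 h is unknown. Seen from H3K27me3, 5 of 8 peaks at 30 h and 6 of 8 in proliferating cultures overlapped H3K4me3, against 16.0% and 19.5% of their lists. The peaks that overlapped were all wider than the median of their list, 3.229 kb at 30 h and 2.074 kb in proliferating cultures. A wider peak has more room to overlap, and the shares of the lists were not matched for width.

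At Dlx1/Dlx2, both states stood side by side. The H3K4me3 peak of 2.711 kb was covered by H3K27me3 over 95.0% of its length at 30 h and 73.8% in proliferating cultures. The H3K4me3 peak of 3.536 kb was free of H3K27me3 at both times, with the nearest 2.83 kb away at 30 h and 8.28 kb away in proliferating cultures. The upper end of the H3K27me3 domain thus lay closer to that peak in the 30 h list, but did not reach it. The small peak beside it (0.991 kb) was free at both times too, at 1.73 kb at 30 h and 7.17 kb in proliferating cultures, and the other small peak (0.890 kb) was covered in full at 30 h and lay 1.47 kb from H3K27me3 in proliferating cultures. Over the whole window H3K27me3 covered 42.6% of the H3K4me3 length at 30 h and 24.6% in proliferating cultures, against 100% at both times at Dlx5/Dlx6, 77.9% at both times at Dlx3/Dlx4, and 8.61% at 30 h and 7.12% in proliferating cultures over the whole lists. Among H3K4me3 peaks of the series with a score of at least 3100, 4.63% overlapped H3K27me3 at 30 h and 2.62% in proliferating cultures, so the free state of the 3.536 kb peak was the usual one for its score.

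The called H3K27me3 peaks at Dlx1/Dlx2 were also split under an H3K4me3 peak. Only called peaks were used, so a gap between them does not show that the mark itself was absent. The gap of 136 bp between the 30 h peaks (chr2:71367882-71368017) and the gap of 711 bp between the first 2 proliferating peaks (chr2:71367760-71368470) both lay inside the H3K4me3 peak of 2.711 kb. Among gaps shorter than 3 kb between neighbouring H3K27me3 peaks, 6.09% of 4547 at 30 h and 6.74% of 1617 in proliferating cultures were met by an H3K4me3 peak. The Dlx windows held 4 such gaps at 30 h and 4 in proliferating cultures. No gap at Dlx5/Dlx6 or Dlx3/Dlx4 met an H3K4me3 peak, and at each time only the gap inside the 2.711 kb peak did. Gaps of 130 bp at Dlx5/Dlx6 and 249 bp at Dlx3/Dlx4, both in proliferating cultures, were among those that did not.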

How the data were processed

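ChIP-seq of H3K27me3 at 30 h of differentiation, and of H3K27me3 and H3K4me3 in proliferating SVZ NSC cultures, was analysed from 1 peak list each. Inputs were not used here. Bowtie2 and the build mm9 come from the submitters' processing notes. Peaks had been called by the authors with MACS, for H3K27me3 without model and without lambda, and the deposited score is their MACS value. The version and threshold of MACS and its use of inputs were not given in the sources used here. Starts were read as counted from 0 and are printed counted from 1.

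Windows were parsed from their mm9 coordinates, and peaks counted as overlapping from 1 bp. Covered lengths were clipped to the windows, tiles were 50 kb, and peaks less than 3 kb apart were joined for domains (Python 3.11.15, numpy 2.4.6, matplotlib 3.10.9). Genome-wide overlap counts were the same with bedtools 2.31.1, and the interval code was tested on simulated data. The members, lists and measures were chosen with earlier results of these data known. All peaks of the windows were named. Other genes of the Dlx pathway were to be counted only with mm9 gene positions and were left out. The planned comparison of homeodomains was not made, since no protein table was used here, and the study's Dlx2 promoter primers matched 0 of the 32851 promoter entries. Alternative settings are given in the closing section, and those on equal covered length and on tile length were added after seeing the data.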

Additional observations from a re-analysis of the deposited data

How the results depend on the processing

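Under 8 alternative settings, 131 of 144 values stayed within 1.5 times of those given above. These included all values with the 30 h list reduced to as many peaks as the proliferating list and with close peaks merged. They also included all values with at least 50% of the H3K4me3 peak covered and with whole peak lengths. In the settings that shortened only the 30 h list, values that do not use that list could not move, and they are counted among the 131. The same holds for whole peak lengths where no peak crossed a window edge. With close peaks merged, the H3K4me3 peaks over H3K27me3 at Dlx5/Dlx6 fell from 3 to 2 at both times, at the very limit of 1.5 times. With the stronger 50% of each list, the Dlx5/Dlx6 and Dlx3/Dlx4 windows lost all H3K4me3 (0 kb, and 0 peaks over H3K27me3 at either time), since their peaks score below the 2623.1 then needed. The H3K4me3 peaks over H3K27me3 at 30 h fell to 1 at Dlx1/Dlx2, and the length at 30 h alone to 2.75 kb at Dlx3/Dlx4. Windows widened by 25 kb on each side gave 19.43 kb at 30 h alone at Dlx5/Dlx6. When the 30 h list kept only its strongest 2196 peaks, which together span as much as the proliferating list, a setting chosen after seeing the data, Dlx1/Dlx2 had 4.142 kb at both times and 2.951 kb in proliferating cultures alone, and Dlx3/Dlx4 had 2.75 kb at 30 h alone. So the full inclusion of the proliferating mark in that of 30 h does not hold there for Dlx1/Dlx2, whose 4.246 kb peak at 30 h is then left out. Tiles of the window's own length were also chosen after seeing the data. With them, 0.0579% were covered at least as much as Dlx5/Dlx6 by H3K27me3 at 30 h, against 0.153% of 50 kb tiles. For Dlx3/Dlx4 the share rose instead, to 0.508% from 0.339%. Beyond the shorter lists and other windows the causes were not tested. Unknown depth limits every comparison between lists.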

Other observations

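The arrangement at Dlx1/Dlx2, an H3K27me3 domain over one H3K4me3 peak and next to another that is free, was counted across the genome after it had been seen. Of 10640 joined H3K27me3 domains at 30 h, 589 (5.54%) had an H3K4me3 peak with a score of at least 3100, free of H3K27me3 in both lists, within 3 kb of an edge, and 72 of them (0.677% of all) overlapped an H3K4me3 peak as well. Among domains of at least 15 kb, 62 of 1135 (5.46%) had such a neighbour and 21 (1.85%) met both conditions, the Dlx1/Dlx2 domain among them. That domain was 15.52 kb wide, with its free peak 2.83 kb away at a score of 3100. The limits thus lie close to or at its own values, and the shares are a description only.

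The 2.711 kb H3K4me3 peak at Dlx1/Dlx2 was set beside others of its width, also after its values had been seen. Of the 4284 H3K4me3 peaks at least as wide, 231 (5.39%) overlapped H3K27me3 at 30 h, and 72 (1.68%) were covered over as large a share of their length.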
